A study of Mus musculus with 12 samples.

Results

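Ncl, Fbl, Nop56, Nop58, Dkc1, Nhp2, Gnl3, Rrs1, Nolc1 and Pno1 encode nucleolar proteins that modify ribosomal RNA or assemble ribosomal subunits, and their transcripts were followed through the neuronal differentiation of P19 cells. These 10 genes were listed by name, and their reads were every messenger RNA read that passed the tail quality tag and carried one of the 10 gene names. They made up 10 of 14042 genes and 9892 of 4274320 kept reads. P19 is a male mouse embryonal carcinoma line, wild type in every group, and each group held 3 biological replicates. D0 was sampled from cells in serum medium before differentiation, and D2, D4 and D6 were sampled 2, 4 and 6 days after plating in NDiff 227 medium with 500 nM retinoic acid. Each library was native poly(A) RNA read directly on nanopores, so that 1 read stands for 1 RNA molecule and gives the length of its poly(A) tail. All libraries of a day shared their sequencing runs and no run held more than 1 day, so that the run and the day cannot be told apart. The names of the 3 D0 runs carry the mark D2 beside the word undifferentiated and 2 of the 4 D6 runs name no day, and libraries were grouped by their sample labels. P-values measure only the spread between these 3 cultures of one line.

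The nucleolus forms around ribosomal RNA genes, where RNA polymerase I makes the precursor that is cut, modified and folded into subunits. Box C/D and H/ACA small nucleolar ribonucleoproteins (snoRNPs) use guide RNAs to place ribose methyl groups and pseudouridines on the precursor. Other factors bind the precursor in turn and leave before the subunits mature. Proliferating stem cells are known for large nucleoli and a high output of ribosomes.

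The library with the fewest kept reads was D2 replicate 1 (120326) and the one with the most was D0 replicate 2 (613756). In reads per 1000000 scaled reads (CPM), the embryonal carcinoma markers summed to between 1995 and 2231 at D0 and between 176 and 218 at D6, and the neuron markers to between 534 and 561 at D0 and between 2539 and 2624 at D6. All 4 embryonal carcinoma markers with enough reads to be tested were lower at D6 and all 7 neuron markers were higher, whereas 2 further embryonal carcinoma markers, Zfp42 and Dppa5a, had no read. Endoderm and mesoderm markers stayed at or under 8.14 CPM in every library and the glial list at or under 39.2 CPM. At D2 and D4 the embryonal carcinoma markers summed to between 130 and 196 CPM and between 147 and 161 CPM, and the neuron markers to between 309 and 518 CPM and between 1325 and 1541 CPM. The neuron markers did not move together from D0 to D2. Stmn2 (means of 320 and 77.5 CPM) and Tubb3 (140 and 62.2 CPM) were called lower, Gap43 (63.6 and 253 CPM) was called higher, and 4 were not called. Sox2, a gene that neural progenitors also express, made up nearly all of the embryonal carcinoma sum after D0, with means of 152, 154 and 196 CPM at D2, D4 and D6, whereas Pou5f1 went from 1703 CPM at D0 to 6.79, 0 and 0.903 CPM, and Nanog, Tdgf1 and Utf1 had 0 reads on those days. The part of these shifts in the changes given here was not tested.

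The place where each molecule ended is shown first, because tail length is counted from that place. The 30 bases before the leading read end of the member transcripts are given 5′ to 3′ from the GENCODE vM21 transcripts on build GRCm38, with a polyadenylation hexamer (AATAAA or ATTAAA) in capitals where one was present, searched on the transcript strand only.
Ncl, chr1:86350496-86350525, minus strand: attccaagacagtaaagatcctaaactctg
Fbl, chr7:28179240-28179269, plus strand: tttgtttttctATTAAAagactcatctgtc
Nop56, chr2:130279279-130279308, plus strand: ataaaaccccAATAAAaacacaaaaccaga
Nop58, chr1:59711481-59711510, plus strand: cacaAATAAAatattttctttgtattataa
Dkc1, chrX:75109748-75109777, plus strand: ttttATTAAAagtctgaggtttatgtccta
Nhp2, chr11:51623407-51623436, plus strand: ggatagaagtaaatgctaaggcgaaaacgt
Gnl3, chr14:31012433-31012462, minus strand: ttcaaAATAAAatacaagtatttgcttgca
Rrs1, chr1:9547423-9547452, plus strand: tttgttcttAATAAActtatctttgcataa
Nolc1, chr19:46084433-46084462, plus strand: tatattttatATTAAAtcatgtcatacaga
Pno1, chr11:17203198-17203227, minus strand: gaggtcagtaaattcaagcaataactaaaa

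Of these 10 leading ends, 7 had a hexamer in the 30 bases, AATAAA in 4 and ATTAAA in 3, and the last 30 bases of 58616 annotated protein-coding transcripts held one in 44.2% of cases, against 2.51% for a window of the same length that stopped 100 bases before the end. A window without a match says only that these letters were not in it. In 8 members a single site, taken as all ends within 25 bases of its centre, held between 91.9% (Ncl) and 99.6% (Rrs1) of the reads. Reads of Ncl, Nop58 and Nhp2 mostly ended well before the last base of the annotated transcript, by 5777 bases for Ncl, 7534 for Nop58 and 278 for Nhp2. Most Nolc1 reads did so too, since 24.1% of them ended within 100 bases of the annotated end.

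Nolc1 and Pno1 each used 3 sites with at least 5% of their reads. On the 4 days in turn, the leading Nolc1 site held 57.8% of 341 reads, 66.7% of 123, 60.3% of 184 and 56.1% of 123. Its D2 libraries stood at 43.5%, 81.5% and 60.9%. The distal Nolc1 site lay at the annotated end of ENSMUST00000223728.1 and followed the sequence printed next.
Nolc1 distal, chr19:46085501-46085530, plus strand: ccacaaaacAATAAAgtgaatggttcctaa
In the same order of days it took 22.6%, 10.6%, 17.4% and 22.8% of Nolc1 reads. Its share ran from 20.6% to 25.0% over the D0 libraries and from 13.6% to 32.4% over the D6 libraries, so that these days overlapped. The D2 value rested on 13 reads, with 26.1%, 5.56% and 8.70% in the libraries, the first above all of D0. For Pno1 the leading site held 67.3% of reads at D0 and 69.3% at D6, and the site 248 bases upstream held 13.6%, 21.2% and 12.2% of them at D0, D2 and D4 and 9 of 75 reads at D6. No shift of end site was tested for either gene.

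All 10 members had a lower fitted level at D6 than at D0, and 9 of them passed the test. Called at an adjusted p of 0.05 with limma-voom over 9309 genes, 2 of 10 members were lower at D2 (Ncl and Nop56), where 6.11% of all genes were. At D4 the count was 7 of 10, with Fbl, Dkc1, Nhp2, Gnl3 and Nolc1 added, against 12.5% of all genes. At D6 it was 9 of 10, with Nop58 and Pno1 added, against 18.8% of all genes. No member was called higher on any of these days, nor did any have an unadjusted p under 0.05 in that direction. Over D2, D4 and D6 the median log2 change of the members was -0.19, -0.92 and -1.15, beside -0.04, 0.01 and 0.00 over all genes. In 9 members every D6 library lay below every D0 library, which held for 24% of genes tested. In poly(A) RNA pooled over a culture, fewer cells of a type and less of the RNA per cell cannot be told apart.

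**Figure D1:**
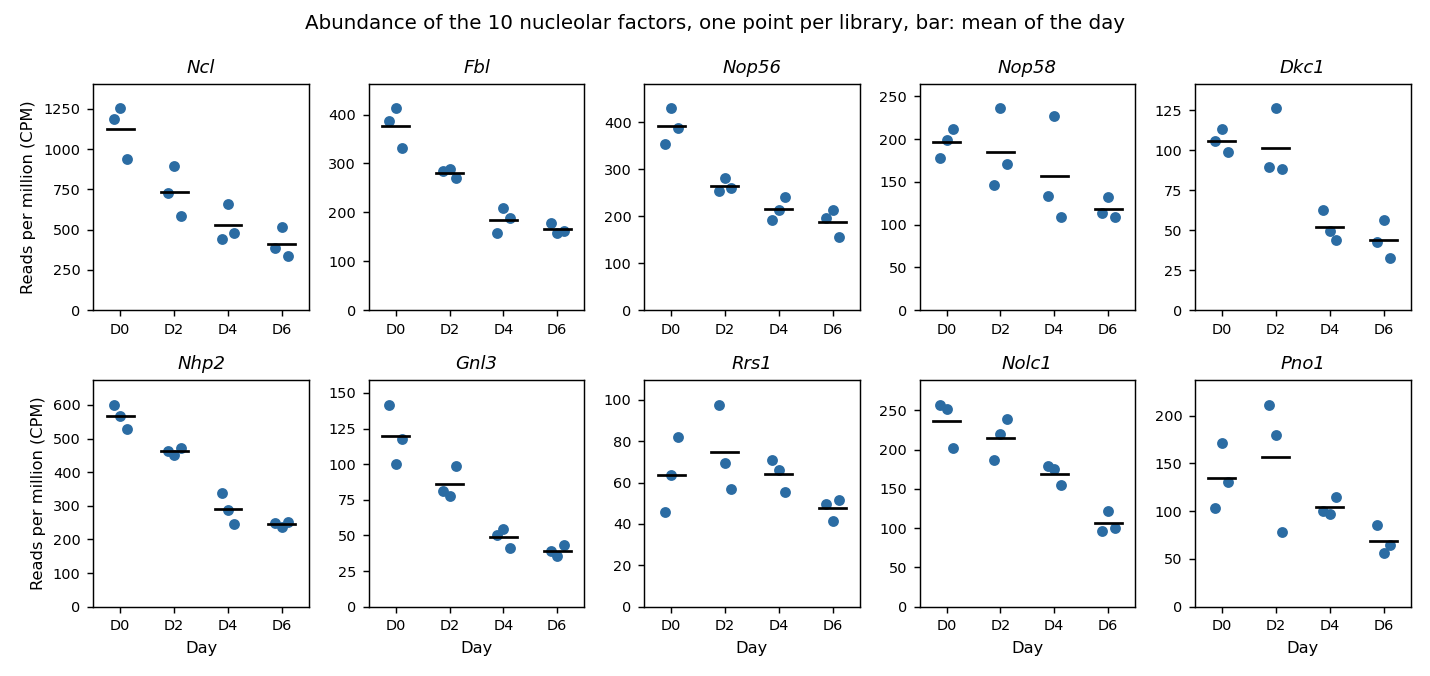
Abundance of the 10 genes in CPM (vertical axes from 0, a separate scale for each gene) by day of differentiation. Each point is 1 library and each bar the mean of 3, and the D6 points lie below the D0 points in 9 of the 10 panels, the exception being Rrs1.

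Together the 10 genes made up 3361, 3566 and 3029 CPM in the 3 libraries of D0 and 1438, 1566 and 1304 CPM in those of D6. The summed level averaged 3319 ± 271 CPM before differentiation, then 2562 ± 256, 1812 ± 196 and 1436 ± 131 CPM on the later days (n = 3, SD after the sign, as for all levels here). Since each read is 1 molecule, levels of different genes were compared without dividing by length.

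Ncl encodes nucleolin, an abundant RNA-binding phosphoprotein of the nucleolus that acts early on the ribosomal precursor. It was the most abundant member on every day. Its 3 libraries read 1188, 1256 and 938 CPM at D0, 724, 897 and 586 at D2, 442, 658 and 481 at D4, and 388, 514 and 333 at D6. No later library reached the lowest of D0, and adjacent later days overlapped. Ncl was lower than at D0 by a log2 change of -0.61 ± 0.14 (SE, adjusted p = 0.000816) at D2, -1.09 ± 0.13 (adjusted p = 3.29e-10) at D4 and -1.45 ± 0.13 (adjusted p = 3.16e-14) at D6, so that 36.7% of the D0 level was left at D6. The D2 call was lost when D2 replicate 3 was left out (adjusted p = 0.0798).

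Nolc1 encodes a nucleolar phosphoprotein that binds both classes of snoRNP. Its libraries read 257, 252 and 202 CPM at D0, 187, 220.1 and 239 at D2, 179, 175 and 154 at D4, and 96.1, 122 and 100.3 at D6. The D2 libraries overlapped those of D0, and the D6 libraries lay below all others. The log2 change from D0 was -0.48 ± 0.15 (adjusted p = 0.0145) at D4 and -1.12 ± 0.17 (adjusted p = 2.48e-07) at D6, and Nolc1 also passed between D4 and D6 (-0.63 ± 0.19, adjusted p = 0.0203). In that step 1 of 10 members was called lower, against 4.39% of all genes, and Ncl passed too when D6 replicate 2 was left out (adjusted p = 0.0467). The D4 call of Nolc1 was lost without D0 replicate 1, D0 replicate 2 or D4 replicate 3 (adjusted p = 0.0592, 0.0732 and 0.0971), and the call from D4 to D6 without D4 replicate 1 or 2 or D6 replicate 1 or 3 (adjusted p from 0.0609 to 0.124).

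Among the box C/D proteins, Fbl encodes fibrillarin, the methyltransferase of the particle, and Nop56 and Nop58 encode the paired proteins that hold it together. Fbl read 387, 414 and 332 CPM at D0, 285, 289 and 269.6 at D2, 158, 208 and 189 at D4, and 178, 158 and 163 at D6. The levels of D4 and D6 overlapped and lay below those of D2. Its log2 change from D0 was -0.41 ± 0.15 at D2 (adjusted p = 0.0709), -0.997 ± 0.144 at D4 (adjusted p = 9.81e-08) and -1.19 ± 0.15 at D6 (adjusted p = 7.06e-10).

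Nop56 read 353, 430.2 and 388 CPM at D0, 252, 281 and 259 at D2, 192, 213 and 239.6 at D4, and 196, 214 and 154 at D6. It was already lower at D2 by 0.54 ± 0.16 on the log2 scale (log2 change -0.54, adjusted p = 0.0146), a call that was lost without D0 replicate 2 or 3 or D2 replicate 2 or 3 (adjusted p from 0.0578 to 0.141), and the change at D6 was -1.05 ± 0.14 (adjusted p = 1.23e-08). Nop58 read 178, 199 and 212 CPM at D0, 147, 236 and 171 at D2, 133, 227 and 108 at D4, and 114, 133 and 108 at D6. Replicate 2 lay above all of D0 at both D2 and D4. Nop58 had log2 changes of -0.04 ± 0.20 at D2, -0.38 ± 0.18 at D4 (adjusted p = 0.116) and -0.71 ± 0.19 at D6 (adjusted p = 0.00187), and without D4 replicate 2 the D4 comparison passed (adjusted p = 0.00587).

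Among the H/ACA proteins, Dkc1 encodes dyskerin, the pseudouridine synthase, and Nhp2 a core RNA-binding subunit. Both were lower by D4. Dkc1 read 106, 113 and 98.7 CPM at D0, 89.5, 126 and 88.1 at D2, 62.5, 49.7 and 43.8 at D4, and 42.7, 56.0 and 32.5 at D6. The D0 and D2 libraries overlapped and every later library was below them, with a log2 change of -1.05 ± 0.28 between D2 and D4 (adjusted p = 0.0155) and -1.25 ± 0.25 from D0 to D6 (adjusted p = 3.32e-05).

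Nhp2 read 601, 567 and 529 CPM at D0, 464, 452 and 472 at D2, 338, 289 and 246 at D4, and 249, 236 and 252 at D6. Its days separated except D4 and D6. The log2 change was -0.28 ± 0.13 at D2 (adjusted p = 0.167), -0.71 ± 0.14 from D2 to D4 (adjusted p = 0.000736) and -1.20 ± 0.13 from D0 to D6 (adjusted p = 8.62e-12). Dkc1, Fbl and Nhp2 were the 3 of 10 members called lower from D2 to D4, against 1.08% of all genes. Without D2 replicate 2 or D4 replicate 3 only Nhp2 was called in that step, and the call of Fbl was also lost without D2 replicate 1 or 3 or D4 replicate 1 (adjusted p from 0.0573 to 0.104). Ncl missed the threshold in that step (-0.48 ± 0.15, adjusted p = 0.0669) and passed it without any one of D0 replicates 1 to 3, D2 replicate 3, D4 replicate 2 or D6 replicates 1 to 3 (adjusted p from 0.00764 to 0.0369), as did Pno1 without D2 replicate 3 (adjusted p = 0.0260).

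Among the assembly factors, Gnl3 and Pno1 were lower at D6 and Rrs1 did not pass the test, and differences between these genes were not tested. Gnl3 encodes nucleostemin, a GTP-binding protein of stem and tumour cell nucleoli that acts in large subunit processing. It read 142, 100.3 and 118 CPM at D0, 81.4, 77.4 and 98.5 at D2, 50.01, 54.4 and 41.5 at D4, and 39.2, 35.3 and 43.4 at D6. No D2 library reached D0 and no D4 library reached D2. Its log2 change was -1.26 ± 0.23 at D4 (adjusted p = 2.03e-05) and -1.56 ± 0.25 at D6 (adjusted p = 4.85e-07), or 33.9% of the D0 level, on 170 reads at D0 and 44 at D6.

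Pno1 encodes a small subunit assembly factor with an RNA-binding KH domain. It read 103, 171 and 130.2 CPM at D0, 212, 179 and 77.8 at D2, 100.03, 97.0 and 115 at D4, and 85.4, 56.0 and 65.0 at D6. The D2 libraries spanned both sides of D0. Pno1 had log2 changes of 0.07 ± 0.23 at D2, -0.36 ± 0.21 at D4 (adjusted p = 0.221) and -1.02 ± 0.23 at D6 (adjusted p = 0.000339).

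Rrs1 encodes a regulator of large subunit assembly and its transcript has a single exon. It read 45.7, 63.8 and 81.9 CPM at D0, 97.7, 69.3 and 57.04 at D2, 70.9, 66.2 and 55.3 at D4, and 49.8, 41.5 and 51.5 at D6. Every day overlapped D0. Its log2 changes from D0, in order of day, were 0.18 ± 0.28, 0.00 ± 0.24 and -0.41 ± 0.26 (adjusted p = 0.213 for D6). It had 93 reads at D0 and 53 at D6, and a change of the size seen for Nop58 lies within 2 standard errors of its value.

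**Figure D2:**
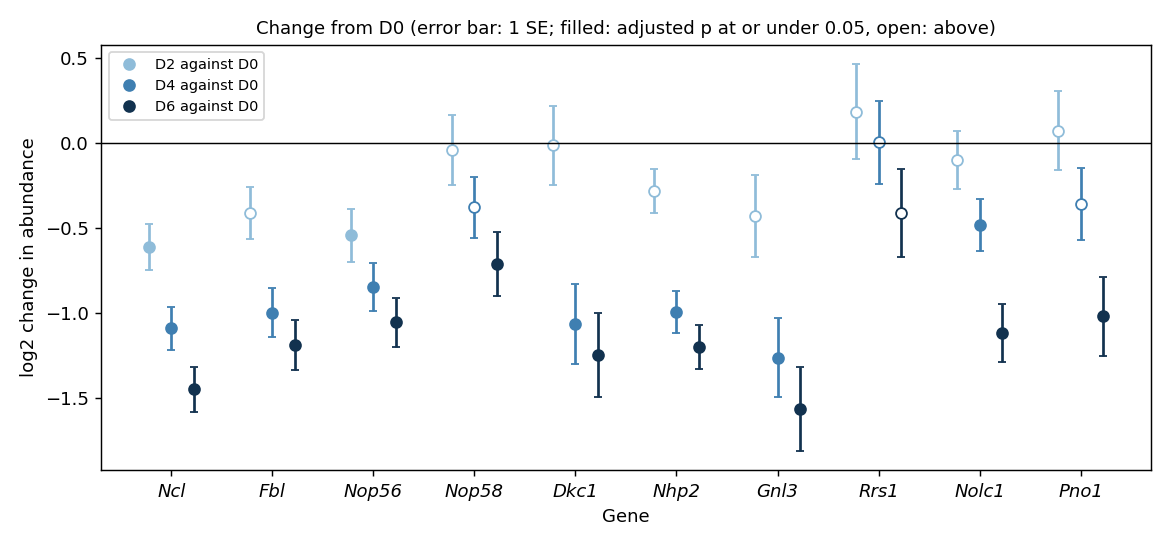
Log2 change in abundance from D0 for each gene at D2, D4 and D6 (vertical axis, limma-voom, error bars 1 SE). Filled points passed an adjusted p of 0.05 and open points did not, and at D6 only Rrs1 is open.

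The order of levels was Ncl, Nhp2, Nop56, Fbl, Nolc1, Nop58, Pno1, Gnl3, Dkc1 and Rrs1 at D0. Neighbours in that order whose D0 libraries overlapped were Nop56 and Fbl, Nolc1 and Nop58, Pno1 and Gnl3, and Gnl3 and Dkc1. By D6 Pno1 (68.8 ± 15.1 CPM), Rrs1 (47.6 ± 5.36), Dkc1 (43.7 ± 11.8) and Gnl3 (39.3 ± 4.05) formed the low end of the order. Rrs1 was thus the member at the bottom at D0 and stood above Dkc1 and Gnl3 in mean level at D6, although its libraries overlapped those of both.

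The same reads were also tallied transcript by transcript, so these values are not independent of those at the gene level. Reads of the 10 genes fell on 31 annotated transcripts, of which 19 had enough reads to be tested and 14 were lower at D6, against 15% of 12356 transcripts tested. None was called higher, and all 19 had a change below 0. Fbl, Dkc1, Pno1 and Rrs1 each had 1 transcript, and a single protein-coding transcript took 99.0% of the Nhp2 reads and 99.1% of the Nop58 reads. The protein-coding Ncl transcript ENSMUST00000027438.7, on chromosome 1 from 86344719 to 86359400 on the minus strand with 14 exons, took 88.9% of Ncl reads and had a log2 change of -1.42 ± 0.15 (adjusted p = 8.16e-11). A retained-intron transcript of Ncl, ENSMUST00000185676.6, took 8.51% and changed by -1.68 ± 0.31 (adjusted p = 2.27e-05).

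Nop56 spread over more forms. Its full-length protein-coding transcript ENSMUST00000103198.10 (chromosome 2, 130274430 to 130279313, plus strand, 12 exons) made up 70.5% ± 0.416 of Nop56 reads at D0 and 78.4% ± 1.19, 82.5% ± 0.251 and 77.1% ± 3.19 at D2, D4 and D6, and every later library lay above all of D0. These shares were not tested. The shorter protein-coding transcript ENSMUST00000028890.14, with 5 exons, held 12.2% ± 2.99 at D0 and 7.31% ± 6.27 at D6, and its own abundance changed by -2.07 ± 0.44 (adjusted p = 0.000234) beside -0.90 ± 0.17 (adjusted p = 2.36e-05) for the full-length form. A nonsense-mediated decay form of Nop56, ENSMUST00000150401.7, and a retained-intron form, ENSMUST00000150745.8, had changes of -1.24 ± 0.51 (adjusted p = 0.0577) and -1.05 ± 0.56 (adjusted p = 0.157), neither past the threshold.

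Gnl3 had a protein-coding form, ENSMUST00000037739.7, with 77.5% of reads and a nonsense-mediated decay form, ENSMUST00000226740.1, with 20% and both shared the same 3′ end on chromosome 14. The decay form held 30.5%, 21.8% and 21.4% of Gnl3 reads in the D0 libraries and 0%, 23.5% and 18.8% in those of D6, so that its shares overlapped. Its abundance changed by -2.27 ± 0.61 (adjusted p = 0.00304) and that of the coding form by -1.47 ± 0.28 (adjusted p = 5.13e-05). The difference between the 2 forms was not tested.

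The 3 protein-coding forms of Nolc1 held 44.7%, 30.6% and 19.8% of its reads and were all lower at D6, by -1.23 ± 0.23 (ENSMUST00000223728.1, adjusted p = 4.23e-05), -0.88 ± 0.28 (ENSMUST00000165017.1, adjusted p = 0.0126) and -1.16 ± 0.41 (ENSMUST00000225780.1, adjusted p = 0.0264). Assignment between them is weak, since 2.33% of Nolc1 reads had a mapping quality of at least 10, beside 58.4% for Gnl3, 72.3% for Nop56, 76.8% for Ncl and at least 92.7% for the other members. Values per Nolc1 transcript are therefore uncertain. With reads of a mapping quality of at least 10 alone, 11 member transcripts could be tested and 10 were lower. The share of all transcripts called lower under that minimum was not counted. The Ncl retained-intron form, the Gnl3 decay form and every Nolc1 form could not be tested there, and the Nop56 decay form ENSMUST00000150401.7 passed (-1.40 ± 0.53, adjusted p = 0.0426).

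Poly(A) tails of the same molecules did not pass a test for change in any member. Median tails averaged from 89.4 nt (Pno1) to 107 nt (Nop56) over the D0 libraries, and the median gene of 4841 tested stood at 108 nt. At D6 the member means ran from 91.1 nt (Fbl) to 138 nt (Gnl3). By limma on library medians weighted by reads, 0 of 10 members were called at D2, D4 or D6, where 1.82%, 2.77% and 4.77% of all genes were. At D6, 1 member had an unadjusted p under 0.05, and none did at D2 or D4. Unweighted limma called none either. The standard error of a member's D6 difference was 8.66 nt at the median, which limits the changes that could be detected.

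**Figure D3:**
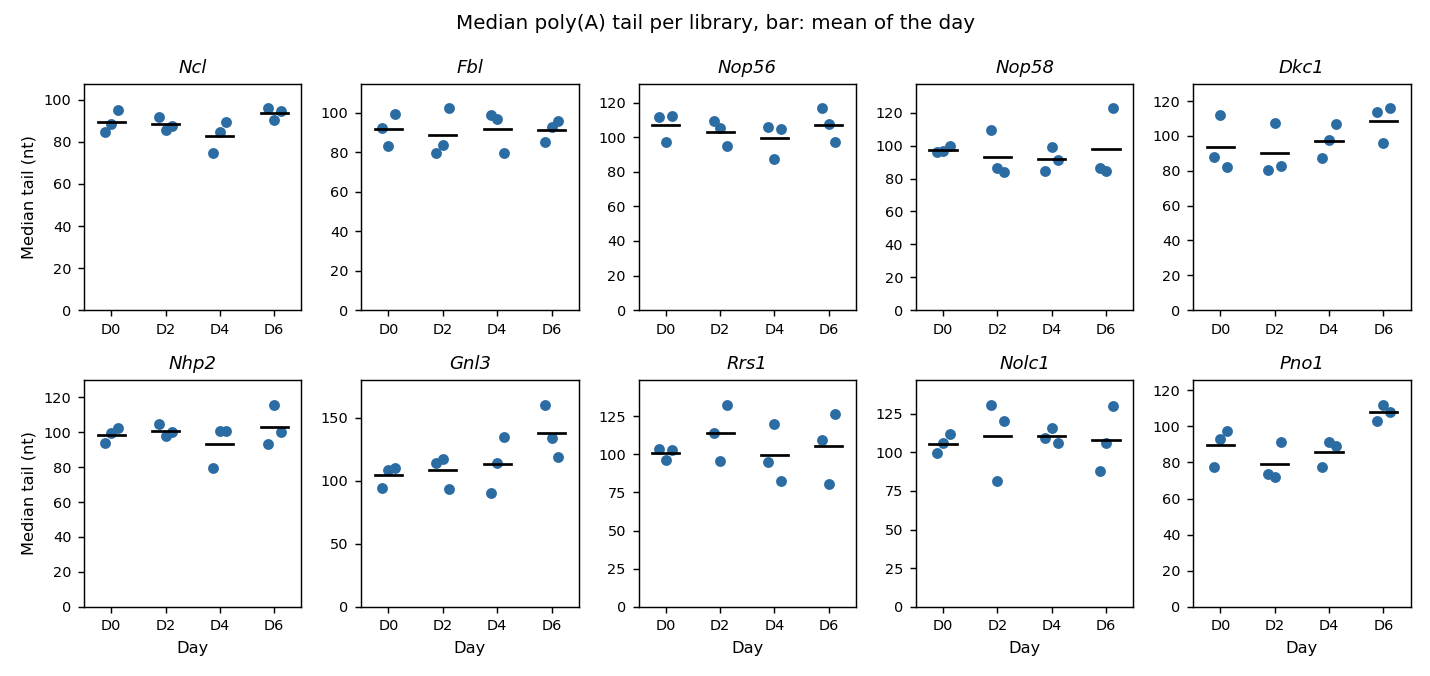
Median poly(A) tail in nt (vertical axes from 0, separate scales) for each of the 10 genes by day. Each point is 1 library and each bar the mean of 3, and for Gnl3 and Pno1 the 3 points of D6 lie above those of D0, in neither case past the adjusted threshold.

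Ncl, with the most reads, had median tails of 84.7, 88.5 and 95.3 nt at D0 and 96.2, 90.3 and 94.9 nt at D6, which overlapped, and the fitted difference was 3.62 ± 4.05 nt (SE, adjusted p = 0.733). Gnl3 had 94.1, 108.6 and 110.3 nt at D0 and 160.4, 133.8 and 118.6 nt at D6. The 2 days did not overlap, yet the difference of 30.8 ± 13.0 nt did not pass (adjusted p = 0.206). Pno1 had 77.5, 93.1 and 97.7 nt at D0 and 102.8, 112.1 and 108.2 nt at D6, again without overlap, and a difference of 16.7 ± 9.89 nt (adjusted p = 0.424). These 2 of 10 members were the ones whose days did not overlap, against 18.5% of all genes tested, and the other members had differences from -1.14 nt (Nop58) to 9.01 nt (Dkc1).

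Tails were also counted by class. Tails of 30 to 90 nt made up between 33.4% (Nop56) and 46.7% (Ncl) of the reads at D0 on average, and no member passed for a changed share at D2, D4 or D6, where 2.19%, 2.95% and 3.28% of all genes were called. The lowest adjusted p at D6 was for Ncl, 46.7% ± 3.95 at D0 and 40.8% ± 1.18 at D6, with a difference of -5.46 ± 2.52 percentage points (adjusted p = 0.342), and it was the 1 member with an unadjusted p under 0.05. Tails under 30 nt were rare, from 1.73% (Nhp2) to 7.91% (Pno1) at D0, and their share was called for 0 of 10 members at D2, D4 or D6, against 0%, 0.888% and 1.3% of all genes. The 1 member with an unadjusted p under 0.05 against D0 was Nhp2 at D4, where 4.94%, 3.28% and 2.80% of its tails were under 30 nt in the 3 libraries, all above the 2%, 1.61% and 1.59% of D0 (difference 1.83 ± 0.50 percentage points, adjusted p = 0.197 by limma).

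Cytosolic ribosomal proteins, the products that these factors help to build into subunits, are encoded by transcripts whose tails did pass. Of 80 such genes, 62, 75 and 76 had a shorter median tail at D2, D4 and D6, with median differences of -11.4, -15.9 and -17.5 nt. The members had median differences of -1.03, -1.75 and 3.95 nt on the same days, beside -2.51, -0.65 and 4.81 nt over all genes tested. Mitochondrial ribosomal proteins, of which 77 were tested, had median differences of -3.18, -2.23 and -0.35 nt with 0, 0 and 1 called shorter, the last being Mrpl52, named after its value was seen. At D6 the highest of the 80 cytosolic differences was -2.76 ± 4.05 nt (Rps27l) and the lowest member difference -1.14 ± 8.26 nt (Nop58). The gap between these 2 values is smaller than either standard error. Over the alternative settings the Nop58 difference ran from -12.2 to 9.19 nt. The ribosomal protein transcripts were measured on more reads, with a median standard error of 1.92 nt at D6 against 8.66 nt for the members, so that the counts of calls are not comparable between the lists. No test of the difference between the lists was made.

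**Figure D4:**
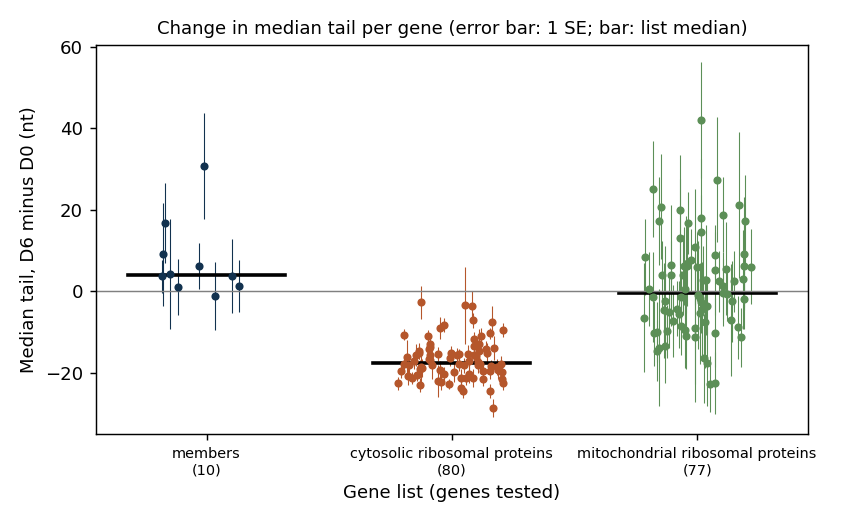
Difference in median tail between D6 and D0 in nt (vertical axis) for each of the 10 members, 80 cytosolic and 77 mitochondrial ribosomal protein genes. Points are genes with 1 SE, thick bars are list medians of 3.95, -17.5 and -0.35 nt.

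Other genes of ribosome production were taken from lists of snoRNP proteins, RNA polymerase I machinery and assembly factors. Of 132 such genes tested besides the members, 8 were lower at D2, 52 at D4 and 84 at D6, and 0, 1 and 1 were higher. The lower genes were 6.06%, 39.4% and 63.6% of the list, beside 6.11%, 12.5% and 18.8% of all genes, so that the D2 share was near that of all genes. Their median log2 change was -0.31, -0.57 and -0.80 on these days. The genes called higher, named here after their values were seen, were Znrd1 at D4 (0.78 ± 0.20, adjusted p = 0.00204), which encodes a subunit of RNA polymerase I, and Rrn3 at D6 (0.64 ± 0.26, adjusted p = 0.0430), which encodes an initiation factor of that enzyme.

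The remaining core snoRNP genes were also lower at D6. Snu13, of the box C/D particle, changed by -0.59 ± 0.13 (adjusted p = 0.000256). Gar1 and Nop10, of the H/ACA particle, changed by -1.0002 ± 0.2535 (adjusted p = 0.00113) and -0.65 ± 0.15 (adjusted p = 0.00049). Neither particle thus had a core gene that was not called lower, 4 of 4 in each. Among snoRNP assembly factors, Nolc1 included, 8 of 10 were lower, with Ruvbl2 (-1.17 ± 0.19) and Ruvbl1 (-0.84 ± 0.20), the ATPases of that pathway, and Znhit3 (-0.57 ± 0.23).

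All 5 abundant nucleolar phosphoproteins were lower, the 2 members Ncl and Nolc1 among them. Npm1, which encodes nucleophosmin, the histone and ribosome chaperone of the nucleolus, averaged 4478 CPM at D0 and 1151 CPM at D6, with a log2 change of -1.98 ± 0.08 (adjusted p = 3.06e-30), and the related Npm3 changed by -1.06 ± 0.18. Of 13 genes of the RNA polymerase I machinery 7 were lower, among them Polr1c (-1.03 ± 0.16) and Polr1d (-0.80 ± 0.15), which encode shared subunits of RNA polymerases I and III, and Taf1d (-0.66 ± 0.25), which encodes a subunit of its promoter factor.

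For small subunit assembly, Pno1 included, 32 of 52 genes were lower at D6 and none higher, with Wdr43 (-1.52 ± 0.24), Utp18 (-1.23 ± 0.23) and Bms1 (-1.19 ± 0.28) changing most among the other genes that averaged 20 or more reads a library. For large subunit assembly, Gnl3 and Rrs1 included, the count was 34 of 55 and none higher, with, by the same choice, Ddx56 (-1.46 ± 0.25), Rrp15 (-1.44 ± 0.27) and Pes1 (-1.40 ± 0.19). Transcripts of cytosolic ribosomal proteins were lower for 75 of 80 genes at D6 with a median of -0.57, and those of mitochondrial ribosomal proteins for 28 of 78 with 4 higher (Mrpl52, Mrps21, Mrps33 and Mrps6, likewise named after the test) and a median of -0.33. At D4 the medians were -0.16 and -0.17, beside -0.92 for the members. At D2 they were -0.22 and -0.14, beside -0.19 for the members, and 35 of the 80 cytosolic genes were called lower.

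**Figure D5:**
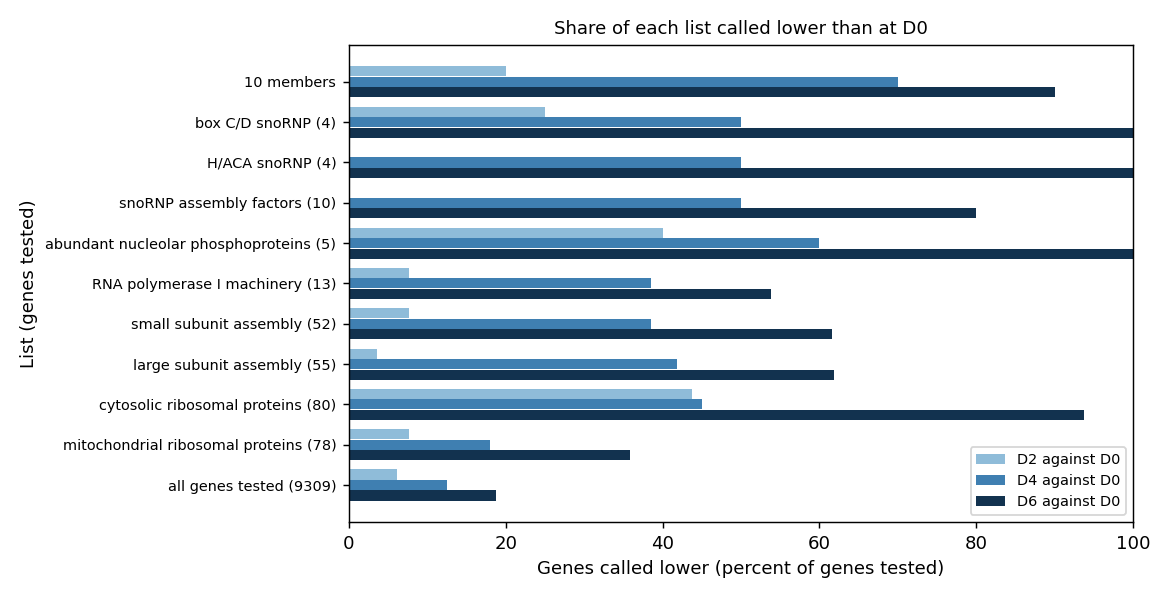
Share of each gene list called lower than at D0 (horizontal axis, percent of genes tested) at D2, D4 and D6, with the number tested in parentheses and the member genes counted in their lists. The 10 genes stand at 20, 70 and 90%, and all genes tested at 6.11, 12.5 and 18.8%.

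Myc proteins are known activators of ribosome genes. Myc itself had 19 reads in all and was not tested. Mycn changed by -0.71 ± 0.24 at D6 (adjusted p = 0.0129), Mycl by 2.29 ± 0.31 (adjusted p = 1.01e-08) and Max by 0.03 ± 0.26 (adjusted p = 0.939).

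Since 9 of the genes moved the same way, the sequence before their start sites was searched on both strands for the E-box CACGTG that Myc proteins bind, the NRF1 core GCGCATGC and the ETS core CCGGAAG. RefSeq promoters on GRCm38.p6 were matched for 8 of 10 members, all but Fbl and Rrs1, and the 250 bases before the start were used. CACGTG was found in 0 of 8 windows (6.02% of 32851 windows), GCGCATGC in 0 (2.26%) and CCGGAAG in 2 (6.91%), those of Nhp2 and Nolc1. Their last 100 bases before the start are printed with the ETS core in capitals.
Nhp2, chr11:51619673-51619772, plus strand: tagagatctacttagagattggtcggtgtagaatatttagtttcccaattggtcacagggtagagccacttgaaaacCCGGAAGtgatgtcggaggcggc
Nolc1, chr19:46075747-46075846, plus strand: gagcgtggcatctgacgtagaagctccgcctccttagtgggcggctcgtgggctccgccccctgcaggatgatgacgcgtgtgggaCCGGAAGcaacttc
The core began 23 bases before the RefSeq start of Nhp2 and 14 bases before that of Nolc1. The GENCODE transcript that took 99.0% of Nhp2 reads starts further upstream, at 51619735, so that the Nhp2 core lies inside that transcript. A match is a run of letters and not a measured binding site, and no match says only that the letters were not in these windows.

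The 3 log2 changes from D0 were compared with the member medians over 2786 genes other than the members, pathway genes included. The nearest were Lap3, C1qbp, Nmt1, Cad and Ncapg, with root mean square differences from 0.069 to 0.097. None of them was on a pathway list. Cad, which encodes the enzyme that starts pyrimidine synthesis, changed by -0.07, -0.97 and -1.25 at D2, D4 and D6, beside the member medians of -0.19, -0.92 and -1.15. C1qbp, which encodes a mostly mitochondrial protein, changed by -0.18, -0.81 and -1.27. Of the members, Nhp2 lay nearest to the medians (0.073) and Rrs1 farthest (0.716).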

How the data were processed

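Native poly(A) RNA of P19 cells was measured in 12 libraries, 3 for each of 4 days. Guppy base calls were aligned by the authors to mm10 transcripts of GENCODE vM17 (Minimap2 version 2.20), tail lengths came from Nanopolish, and Deeplexicon gave the barcodes. The table they deposited has 1 line per alignment, with tail length in nucleotides, mapping quality as a score from the aligner and barcode confidence as a fraction, per the file headers. A second deposited table, the authors' log2 fold changes and p-values from DESeq2, was not used.

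Of 6306434 lines, 6017105 had an assigned library and 4673531 of these the tag PASS. Mitochondrial and pseudogene lines were set aside. Reads were tallied here per gene, transcript and library, scaled by TMM (trimming 30% of ratios and 5% of levels) and fitted with limma-voom (limma version 3.58.1, R 4.3.3, pseudocount 0.5 reads) over all 12 libraries, for features with at least 30 reads in all. Tail measures were fitted with limma weighted by reads, for genes averaging 10 or more reads a library and present in each. P-values were adjusted by Benjamini-Hochberg over all features. The fits were checked on simulated data. Named genes were the members, their transcripts with at least 5% of reads on some day, the 3 other genes of each list with the largest D6 change among those averaging 20 or more reads a library, and the 5 genes nearest to the member medians. Genes of the Myc family and of the marker lists were named whatever their number of reads. The members and lists were chosen with earlier results of these data known. Alternatives were another scaling, other read, mapping and barcode minimums, other tail classes and summaries, thinning, limma-trend or unweighted limma, a replicate term and leaving out each library.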

Additional observations from a re-analysis of the deposited data

How the results depend on the processing

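The count of lower members at D6 against D0 stayed between 7 and 9 of 10, and that at D4 against D0 between 5 and 8, over every alternative, and all member calls kept their direction. The 2 lower members at D2 against D0 became 1 with a mapping quality of at least 10 or with libraries thinned to the smallest, and 0 to 2 when single libraries were left out. The 3 from D2 to D4 became 5 with a minimum of 120 reads and 1 to 4 when single libraries were left out. The 1 from D4 to D6 became 0 with no filter on low counts, with a mapping quality of at least 10 and with thinning, and 0 to 2 when single libraries were left out. The 14 lower transcripts became 8 with thinning, which left 14 of 19 testable, 10 of 11 testable with a mapping quality of at least 10, and 12 to 14 when single libraries were left out. The shares of all genes and transcripts called under the alternatives were not counted. The alternatives run on tails (median and 30 to 90 nt on each day against D0, under 30 nt at D6) called no member. Nolc1 could not be tested at a mapping quality of at least 10. Of the refits of member changes from D0 that had missed the threshold, 28 of 159 changed sign at D2, 7 of 60 at D4 and 0 of 20 at D6. With thinning the D6 calls of Nop58 and Pno1 were lost (adjusted p = 0.103 and 0.208). The D4 call of Nolc1 was also lost with limma-trend, a barcode confidence of at least 0.9 and thinning (adjusted p = 0.0539, 0.112 and 0.156), and that of Dkc1 with thinning (adjusted p = 0.0973). Ncl passed from D2 to D4 with median-of-ratios scaling or at least 120 reads (adjusted p = 0.0297 and 0.0143), and Gnl3 with at least 120 reads or limma-trend (0.0428 and 0.0455). In that step Fbl was lost with no filter on low counts or a barcode confidence of at least 0.9 (adjusted p = 0.0666 and 0.0565) and Dkc1 with thinning (0.347). The D6 change of Gnl3 was -1.15 in place of -1.56 with a mapping quality of at least 10. Median-of-ratios scaling moved the median of all genes by 0.045 or less against D0 on the log2 scale and changed no count by over 1.5 times.

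Replicate numbers were the same across days. Deviations of the 18 same-numbered pairs correlated between -0.134 and 0.172 (median 0.025, 4 over 0.1), beside a median of -0.004 for differently numbered pairs. The correlations were low, yet 9 of 12 libraries correlated best with their own number. The main fit had no replicate term, and whether the numbers pair the cultures was not tested. With a replicate block the count from D4 to D6 was 2 in place of 1 and that from D2 to D4 was 4 in place of 3, Ncl being the gene added in both (adjusted p = 0.0421 and 0.0105), and no other count changed. Depth limits the tails, since D2 held 40 to 422 reads per member and D6 44 to 480.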
